A study of Mus musculus with 24 samples.

Results

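Wild-type mouse type II alveolar epithelial cells (AEC2s) are compared after 1 day in culture with uncultured cells. Libraries are matched by the date in their labels. The series holds 24 libraries: wild-type and Krt8-null AEC2s at days 0, 1, 3 and 7, with 3 isolations each. The 6 libraries used here are all those whose labels give wild type with day 0 (freshly isolated cells, n = 3) or day 1 (cultured cells, n = 3). No treatment is named for either group. Each replicate has its own date in the labels and is called an isolation here. The day-0 and day-1 libraries of a date were taken as a pair where values are given for each isolation. The main test compares the groups without using the pairs, and a fit with the date as a replicate block is an alternative. The labels do not say what the date marks or whether the pair shares its cells of origin. The sample records give no strain, age or number of mice per library. Day 0 was never plated, so plating, medium and elapsed time cannot be told apart. A bulk profile also cannot tell fewer cells that express a gene from less RNA of it per cell. Xist, the RNA of the inactive X chromosome, was at 64.2, 31.8 and 1.16 per 1e6 counts of the library on day 0 and at 67.7, 181.5 and 0.974 on day 1. That places female cells in isolations 1 and 2 and male cells in isolation 3 on both days, the same for both members of each pair.

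Isolation 2 stood apart on day 1, in its surfactant genes among others. Sftpc, the surfactant protein C gene, took 11.9%, 14.8% and 16% of all counts on day 0, and 6.59%, 1.43% and 5.49% on day 1. The value of isolation 2 is the lowest of the day-1 libraries, and all 3 day-1 values lie below all 3 day-0 values. The Krt8-null library of the same date had a similarly low share, 1.37% against 6.53% and 4.99% in the other null isolations. Across surfactant and lamellar-body genes the median log2 difference was -1.95, -4.60 and -2.29 in isolations 1, 2 and 3, whereas keratins and other transitional markers gave 3.11, 3.05 and 3.53. Isolation 2 thus had the deepest fall of surfactant genes by day 1, with a similar gain of transitional markers. Isolation 2 was also lowest for MHC class II genes (-1.31, -3.87 and -2.03) and secreted defence genes (-1.48, -3.67 and -1.83). The same held for sterol synthesis (-0.97, -1.80 and -1.08) and clock genes (-0.51, -1.25 and -0.72). AEC2 transcription factors did not share that order, with -1.64, -1.93 and -2.24. Leaving out isolation 2 kept 6970 of the 9874 calls among the 7264 then made (edgeR, Benjamini-Hochberg adjusted p < 0.05, the meaning of a call throughout). Calls were lost whichever isolation was left out. Without isolation 1, 2 or 3 there were 3792, 3744 and 3829 higher and 4297, 3520 and 4366 lower, against 4730 and 5144 with all.

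The fresh cells carried the marks of AEC2s, and RNA of other cell types was present at lower level. Levels are in CPM, counts per 1e6 of a library total scaled by its TMM factor (trimmed mean of M values). The 8 AEC2 markers summed to 228978, 292868 and 302690 CPM on day 0 and 88776, 15209 and 69286 on day 1, with Sftpc the most abundant. Club-cell markers were the next largest airway signal, carried by the secretoglobin Scgb1a1: 5366, 11403 and 6094 CPM before plating and 4793, 15652 and 7726 after. Of the 4 markers, 3 were called lower and 0 higher, which the sum, mostly Scgb1a1, does not show. In isolation 1 the sum went down although Scgb1a1 went up. Log2 changes are given ± the standard error of the edgeR fit. Scgb1a1 itself was not called (log2 change 0.63 ± 0.44, edgeR adjusted p = 0.23, higher in 3 of 3 isolations, called with library totals). Ciliated-cell markers summed to 542, 653 and 311 CPM and then 301, 214 and 131, led by Tppp3. Fibroblast markers, led by the proteoglycan gene Dcn, went from 978, 499 and 293 CPM to 249, 156 and 135, and 4 of the 6 fell (beside 28.5% of all genes). Macrophage markers summed to 56.3, 32.5 and 15.3 CPM and then 245, 139 and 31.9, led by Cd68, and 1 of the 10 was called higher (beside 26.2% of all genes). Mesothelial markers gave 205, 113 and 66.3 CPM and then 193, 359 and 296, with 1 of 4 called higher and 1 called lower, near the shares of all genes. Msln alone went from a mean of 34.8 CPM to 255, so the other 3 went down in sum. Endothelial markers stayed at or below 27.7 CPM, B-lymphocyte markers at or below 23.8, basal-cell markers at or below 17.2, red-cell and platelet markers at or below 14.4, T- and NK-cell markers at or below 6.43 and neutrophil markers at or below 4.89 in every library. Among these low markers, 2 of 4 basal-cell ones were called higher and 1 lower. Of the 3 red-cell and platelet markers tested, 2 were called higher. Lower calls were made for 2 of 4 tested endothelial, 1 of 5 B-lymphocyte and 1 of 2 tested neutrophil markers. Cd8a, Ly6g and Hbb-bt had no count on day 0, and Trp63, Hba-a2, Hbb-bs and Hbb-bt had none on day 1. Which cells gave these reads is unknown, and their part in the result was not tested.

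AEC2s make pulmonary surfactant, store it in lamellar bodies and spend much of their metabolism on lipid synthesis. They are also progenitors of the flat type I cells (AEC1s), and on a culture dish they leave the AEC2 state through a keratin-rich transitional state. Isolation brings enzymatic dissociation and loss of neighbours before both days, and plating adds a new substrate and new medium before day 1 only. Each is able to act on stress pathways.

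Many genes differed between the days. Of 18046 genes tested, 4730 (26.2%) rose and 5144 (28.5%) fell on day 1 (edgeR, Benjamini-Hochberg adjusted p < 0.05). A change beyond 2-fold was called for 1832 genes (10.2%) upward and 1903 (10.5%) downward. The downward count was 999 without isolation 2 and 1162 with the DESeq2 test, and library totals gave 3135 upward and 1068 downward. The median log2 change over all tested genes was 0.00, the value to set beside every list median given here, as the shares of 26.2% and 28.5% are for every count of list members or markers. Direction of small changes depends on scaling: with library totals in place of TMM the median shifts by 0.46, and the share of calls that are higher goes from 47.9% to 69.8%. The choice matters for every gene with a change of about that size. Pairing the libraries by isolation in a replicate block gave 10332 calls, 9808 of them shared.

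Genes of surfactant and lamellar bodies all fell. The list has 11 tested genes, 11 of them called lower, with a median log2 change of -2.59 (-2.07 without isolation 2, still 11 lower). Sftpc was at 147378, 198968 and 213182 CPM on day 0 and 65943, 12156 and 53466 on day 1. Every day-1 value is below every day-0 value, with isolation 2 the lowest (log2 change -2.09 ± 0.58, edgeR adjusted p = 0.0048, lower in 3 of 3 isolations, not called with the 6-library fit). Its mean on day 1 was 23.5% of that on day 0. Surfactant protein B, needed for the surface film, went with its gene Sftpb from a mean of 8581 CPM to 1189 (log2 change -2.85 ± 0.55, edgeR adjusted p = 1.9e-04, lower in 3 of 3 isolations). The collectin gene Sftpa1 went from a mean of 49417 CPM to 9867 (log2 change -2.32 ± 0.72, edgeR adjusted p = 0.010, lower in 3 of 3 isolations, -2.40 and not called without isolation 3). The lipid pump of the lamellar body, Abca3, was at 2504, 2196 and 1914 CPM on day 0 and 577, 65.03 and 327 on day 1, again without overlap (log2 change -2.77 ± 0.56, edgeR adjusted p = 3.0e-04, lower in 3 of 3 isolations). Lamp3, a membrane protein of the same organelle, fell most in isolation 2, from a mean of 4806 CPM to 603 (log2 change -2.99 ± 0.72, edgeR adjusted p = 0.0015, lower in 3 of 3 isolations). Lpcat1, the acyltransferase that makes dipalmitoyl phosphatidylcholine, followed from a mean of 3594 CPM to 478 (log2 change -2.91 ± 0.54, edgeR adjusted p = 1.5e-04, lower in 3 of 3 isolations). Pgc, the pepsinogen C gene, had 2 counts in the 6 libraries and was not tested.

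Among called genes with a mean of at least 10 CPM on either day, Slc34a2 fell deepest. It encodes the phosphate transporter of the AEC2 apical membrane (chr5:53038081-53071664, GRCm38). Its levels were 15501, 15158 and 14293 CPM on day 0 and 66.5, 3.09 and 15.4 on day 1, so all day-1 values are far below day 0 and isolation 2 is again lowest (log2 change -9.04 ± 1.08, edgeR adjusted p = 7.7e-07, lower in 3 of 3 isolations, -8.44 without isolation 2). The mean on day 1 was 0.189% of the mean on day 0, against 23.5% for Sftpc. The phosphate transporter RNA had thus nearly gone while the most abundant AEC2 RNA was still present. By days 3 and 7 the means were 1.68 and 0.538 CPM for Slc34a2 and 278 and 48.7 CPM for Sftpc. Aspartic protease Napsa, which processes surfactant protein B, kept 24.1% of its day-0 mean and Ctsh, a cathepsin with the same task, 35.8% (log2 change -1.48 ± 0.18, edgeR adjusted p = 8.6e-07, lower in 3 of 3 isolations).

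Transcription factors of the AEC2 state mostly fell. Of 15, 10 fell (66.7%) and 3 rose (20%, below the 26.2% of all genes), with a median of -2.10 (-2.07 without isolation 2). Nkx2-1, the lung lineage factor (chr12:56531958-56536908, GRCm38), was at 541, 585 and 645 CPM on day 0 and 56.2, 76.4 and 90.4 on day 1. No values overlap and isolation 2 lies between the others, unlike for surfactant genes (log2 change -2.99 ± 0.21, edgeR adjusted p = 7.4e-10, lower in 3 of 3 isolations). Etv5, an ETS factor that maintains AEC2s under FGF signalling, was at 1774, 1753 and 1897 CPM on day 0 and 214, 19.5 and 102 on day 1, lowest in isolation 2 (log2 change -4.01 ± 0.62, edgeR adjusted p = 1.7e-05, lower in 3 of 3 isolations). Cebpa, which drives surfactant and lipid genes, went from a mean of 180.1 CPM to 19.8 (log2 change -3.18 ± 0.37, edgeR adjusted p = 6.3e-07, lower in 3 of 3 isolations). The forkhead factors differed: Foxa2 fell to 21.5% of its mean (log2 change -2.21 ± 0.21, edgeR adjusted p = 5.3e-08, lower in 3 of 3 isolations) and Foxa1 to 51.6% (log2 change -0.95 ± 0.22, edgeR adjusted p = 0.0012, lower in 3 of 3 isolations). Klf5, a Krüppel-like factor of epithelial plasticity, rose from a mean of 163 CPM to 410.2, least in isolation 2 (log2 change 1.33 ± 0.26, edgeR adjusted p = 2.5e-04, higher in 3 of 3 isolations). Sox9, a factor of the embryonic distal tip, rose from below 1 CPM to 20.9, 9.43 and 6.44 (log2 change 4.34 ± 0.47, edgeR adjusted p = 1.9e-07, higher in 3 of 3 isolations).

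Defence genes of the AEC2 secretome mostly fell with the surfactant genes. Of 14, 11 fell, 1 rose and 2 were not called, median -2.03, and without isolation 2 the median was -1.58 with 7 lower. The chemokine gene Cxcl15 was at 4279, 5539 and 5694 CPM on day 0 and 1502, 157 and 1075 on day 1, the day-1 values all lower and isolation 2 lowest (log2 change -2.50 ± 0.63, edgeR adjusted p = 0.0024, lower in 3 of 3 isolations). Il33, an alarmin kept in the nucleus, went from a mean of 1031 CPM to 71.8 (log2 change -3.84 ± 0.78, edgeR adjusted p = 3.5e-04, lower in 3 of 3 isolations). The lysozyme genes Lyz1 and Lyz2 are near-identical and share reads, so their division is uncertain. Lyz1 was at 20155, 31981 and 34173 CPM on day 0 and 10470.3, 2523 and 13341 on day 1 (log2 change -1.71 ± 0.57, edgeR adjusted p = 0.016, lower in 3 of 3 isolations, -1.11 and not called without isolation 2, not called with the 6-library fit). Lyz2, at 34613, 40509.5 and 44321 CPM on day 0 and 19541, 4409 and 17859.9 on day 1, was not called (log2 change -1.51 ± 1.12, edgeR adjusted p = 0.26, lower in 3 of 3 isolations, called with the replicate block on 6 libraries). The member that rose was Slpi, a secreted inhibitor of neutrophil elastase, which rose from a mean of 71.9 CPM to 265 (log2 change 1.88 ± 0.39, edgeR adjusted p = 4.4e-04, higher in 3 of 3 isolations). Haptoglobin, an acute-phase protein encoded by Hp, fell from a mean of 905 CPM to 23.96 (log2 change -5.23 ± 0.57, edgeR adjusted p = 2.3e-07, lower in 3 of 3 isolations).

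RNAs for antigen presentation by MHC class II fell together: all 7 genes fell, median -2.23 (-1.62 without isolation 2). The invariant chain Cd74 was at 4112, 5186 and 5759 CPM on day 0 and 2202, 505 and 2111 on day 1, with no overlap and the deepest fall in isolation 2 (log2 change -1.64 ± 0.45, edgeR adjusted p = 0.0042, lower in 3 of 3 isolations). Ciita, the coactivator on which these genes depend, dropped from 32.4, 22.3 and 28.3 CPM to 4.47, 0.417 and 0.475 (log2 change -3.94 ± 0.91, edgeR adjusted p = 0.0014, lower in 3 of 3 isolations). Ciita had the lowest log2 change of the 7 genes, and its difference from the others was not tested.

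Keratins and transitional markers rose in every isolation. 17 of 19 rose and 1 fell, with a median of 3.23 that did not move without isolation 2 (3.23). Krt8, the type II keratin whose loss defines the other genotype in the series (chr15:101996698-102004482, GRCm38), was at 484, 551 and 533 CPM on day 0 and 3156, 3389.6 and 3066 on day 1. All day-1 values exceed all day-0 values and the isolations are close to each other (log2 change 2.62 ± 0.22, edgeR adjusted p = 1.1e-08, higher in 3 of 3 isolations). Part of its reads may go to the processed copy Krt8-ps. Its partner Krt18 went from a mean of 285 CPM to 1488 (log2 change 2.39 ± 0.24, edgeR adjusted p = 1.0e-07, higher in 3 of 3 isolations). The simple-epithelial keratins Krt7 and Krt19 rose 8.36-fold and 10.5-fold in mean CPM. Cldn4, a claudin of tight junctions, was nearly silent before plating: 0.254, 0.325 and 0 CPM on day 0 and 198, 385 and 158 on day 1 (log2 change 10.17 ± 0.79, edgeR adjusted p = 3.1e-09, higher in 3 of 3 isolations). Sfn, the 14-3-3 sigma gene of the p53 pathway, was at 20.6, 17.6 and 10.7 CPM on day 0 and 570.3, 728 and 745 on day 1, without overlap (log2 change 5.37 ± 0.35, edgeR adjusted p = 2.5e-10, higher in 3 of 3 isolations). Lgals3, galectin 3, rose from a mean of 156 CPM to 2597 (log2 change 4.06 ± 0.23, edgeR adjusted p = 5.6e-11, higher in 3 of 3 isolations). Plaur, the urokinase receptor, and Itgb6, the integrin chain that activates TGF-beta, rose 86.3-fold and 9.35-fold. Krt23 was the only member to fall, from a mean of 317 CPM to 95.8 (log2 change -1.72 ± 0.29, edgeR adjusted p = 4.5e-05, lower in 3 of 3 isolations). Krt8 means on days 3 and 7 were 3267 and 4027 CPM, so most of the rise of Krt8 itself was present on day 1.

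AEC1 markers did not move together on day 1. Of 14, 5 rose and 8 fell (35.7% and 57.1%, beside 26.2% and 28.5% of all genes), median -1.13 (-1.01 without isolation 2). Leaving out isolation 1, 2 or 3 in turn gives 6, 4 and 3 higher and 7, 5 and 8 lower. Ager, the receptor for advanced glycation end products, which AEC2 preparations also contain, fell from a mean of 1908 CPM to 401 (log2 change -2.25 ± 0.43, edgeR adjusted p = 1.7e-04, lower in 3 of 3 isolations). Pdpn, podoplanin of the AEC1 surface, rose from a mean of 3.13 CPM to 81.97, all values above day 0 (log2 change 4.66 ± 0.47, edgeR adjusted p = 7.4e-08, higher in 3 of 3 isolations). Akap5, a kinase anchor, rose in isolations 2 and 3 only: 13.4, 6.93 and 7.86 CPM on day 0 and 12.3, 35.8 and 55.9 on day 1 (log2 change 1.86 ± 0.43, edgeR adjusted p = 0.0012, higher in 2 of 3 isolations, 1.22 and not called without isolation 3). Early loss followed by gain holds for Ager, with means of 678 and 983 CPM on days 3 and 7. The day-1 profile is thus one of lower AEC2 RNAs, higher keratins and divided AEC1 markers.

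**Figure D1:**
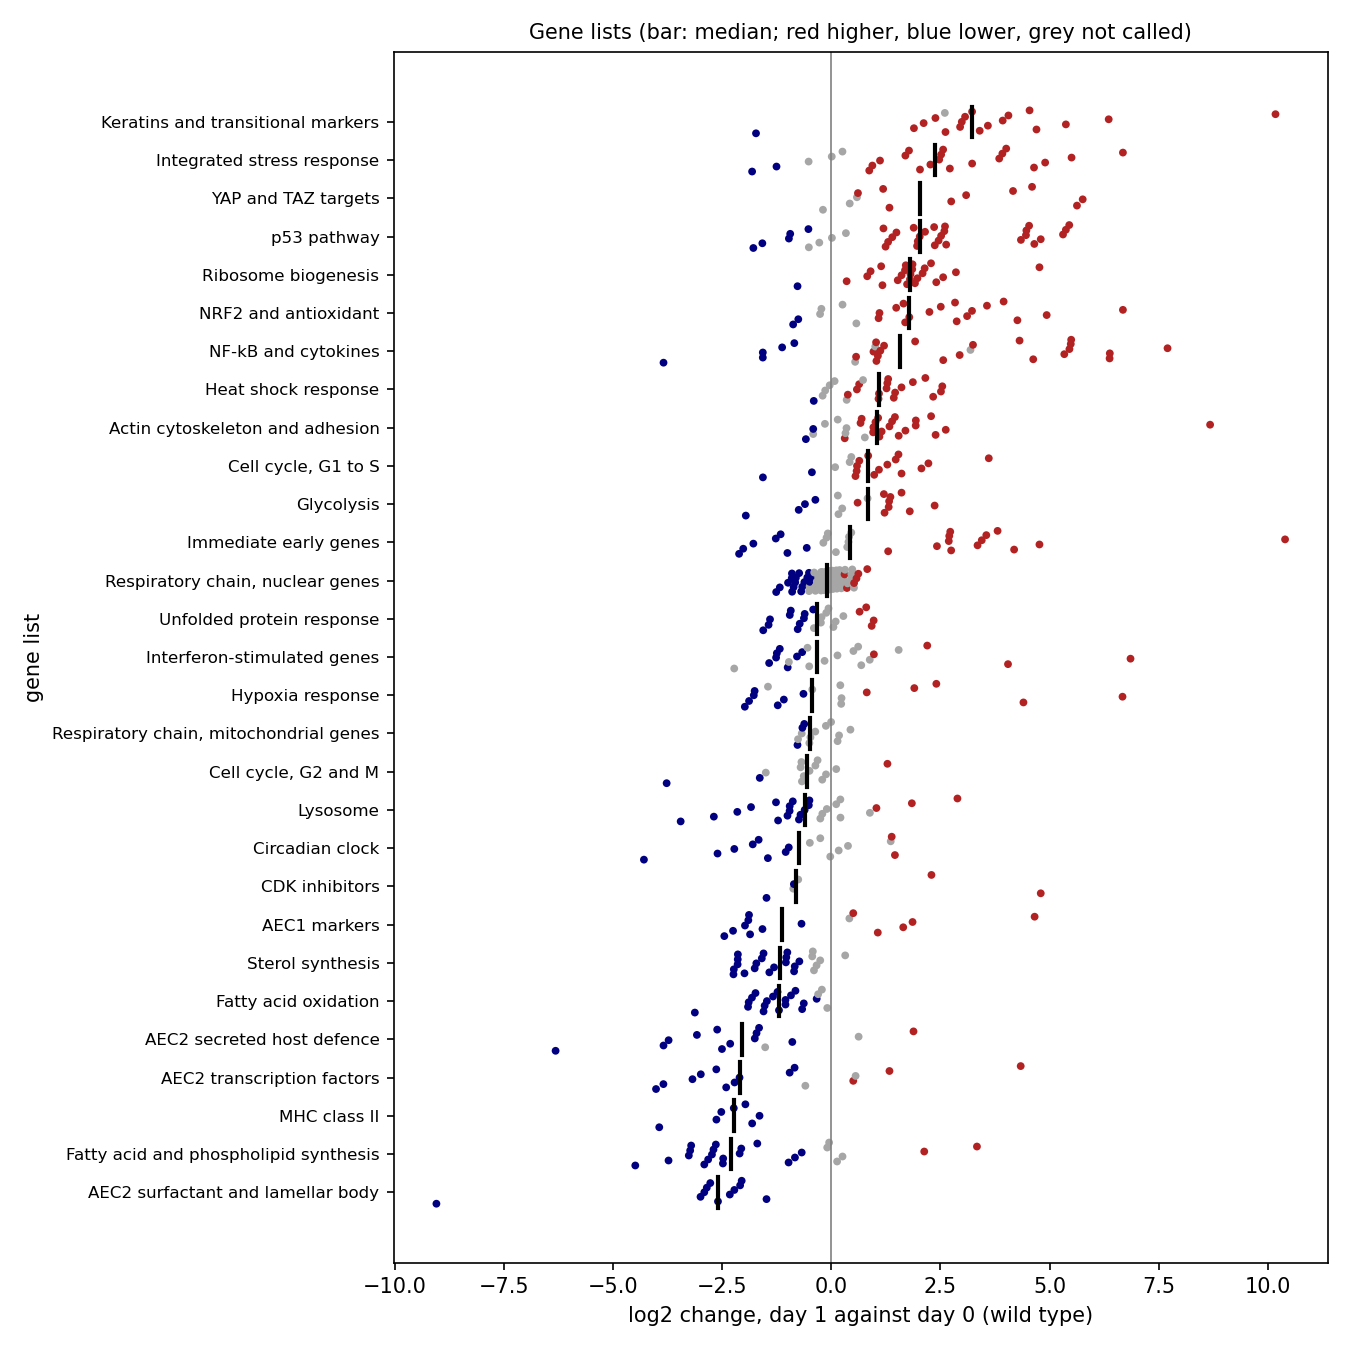
Log2 change of each gene list in wild-type cells, day 1 against day 0. Each point is a gene, red if called higher, blue if called lower and grey if not called, and the bar is the list median.

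More of the listed immediate early genes were called higher than lower, and the fresh cells already held some of them. Of 28, 13 rose and 7 fell (46.4% and 25.0%, beside 26.2% and 28.5% of all genes), median 0.43. Without isolation 1, 2 or 3 the median is 1.11, 0.52 and 0.36 and 5, 4 and 6 are lower. Fos, the classical AP-1 gene, was at 579.7, 118 and 160.2 CPM on day 0 and 101, 40.2 and 70.8 on day 1. Isolation 1 was highest on both days and no day-1 value reached day 0 (log2 change -2.02 ± 0.59, edgeR adjusted p = 0.0070, lower in 3 of 3 isolations, -1.33 without isolation 1). Fosl1, a slower member of the same family, rose from near nothing: 0.381, 0 and 0.221 CPM on day 0 and 358, 207 and 406 on day 1 (log2 change 10.39 ± 0.70, edgeR adjusted p = 4.7e-10, higher in 3 of 3 isolations). Atf3, a stress-induced repressor of the ATF family, was at 24.3, 10.2 and 14.7 CPM on day 0 and 448, 107 and 351 on day 1, lowest in isolation 2 on both days (log2 change 4.19 ± 0.59, edgeR adjusted p = 6.7e-06, higher in 3 of 3 isolations). Jun was not called, with 572, 244 and 314 CPM on day 0 and 454, 191 and 402 on day 1 (log2 change -0.11 ± 0.36, edgeR adjusted p = 0.82, lower in 2 of 3 isolations). Egr1, a zinc-finger factor of growth signals, was not called either at 234, 68.9 and 118 CPM on day 0 and 365, 73.4 and 121 on day 1 (log2 change 0.41 ± 0.59, edgeR adjusted p = 0.58, higher in 3 of 3 isolations). Fos RNA was thus present before plating and lower a day later, with Jun and Egr1 called in neither direction. Zfp36, which makes cytokine RNAs unstable, fell from a mean of 364 CPM to 84.1 (log2 change -2.11 ± 0.24, edgeR adjusted p = 3.2e-07, lower in 3 of 3 isolations). Klf6 and Ier3, induced by injury and by growth factors, rose 6.51-fold and 10.9-fold. Myc, the growth regulator, rose from a mean of 9.75 CPM to 267, with groups far apart (log2 change 4.77 ± 0.20, edgeR adjusted p = 9.8e-13, higher in 3 of 3 isolations).

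Heat-shock genes rose moderately. 16 of 23 rose and 1 fell (called lower in no fit without an isolation), median 1.09 (1.13 without isolation 2). Hspa1b, an inducible HSP70 gene, was at 113, 75.98 and 20.8 CPM on day 0 and 532, 113 and 415 on day 1, so isolation 3 began lowest and isolation 2 gained least (log2 change 2.33 ± 0.70, edgeR adjusted p = 0.0080, higher in 3 of 3 isolations, 2.45 and not called without isolation 1). Hspa1a, its near-identical neighbour, shares reads with it, which leaves their division uncertain. Cryab, the small heat-shock protein alpha B crystallin, rose from a mean of 62.4 CPM to 363 (log2 change 2.54 ± 0.23, edgeR adjusted p = 2.3e-08, higher in 3 of 3 isolations). Hsp90aa1, the inducible cytosolic HSP90, rose from a mean of 807 CPM to 1966 (log2 change 1.28 ± 0.20, edgeR adjusted p = 2.0e-05, higher in 3 of 3 isolations). Hspd1 and Hspa9, chaperones of the mitochondrial matrix, rose 2.697-fold and 3.65-fold.

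Folding genes of the endoplasmic reticulum lay below the median of all genes, while the branch through Atf4 rose. In the unfolded protein response 4 of 22 rose and 10 fell (18.2% and 45.5%, beside 26.2% and 28.5% of all genes), median -0.32. Fits without isolation 1, 2 or 3 give 2, 3 and 1 higher and 10, 7 and 7 lower, and library totals give 8 higher and 5 lower, median 0.15 beside 0.46 for all genes. Xbp1, the spliced transcription factor of that response (chr11:5520659-5525893, GRCm38), fell from a mean of 355 CPM to 120.4, all day-1 values below day 0 (log2 change -1.56 ± 0.12, edgeR adjusted p = 2.8e-09, lower in 3 of 3 isolations). Sel1l, an adaptor of protein degradation from the reticulum, fell from a mean of 318 CPM to 120.3 (log2 change -1.40 ± 0.18, edgeR adjusted p = 1.9e-06, lower in 3 of 3 isolations). Hspa5, the luminal HSP70, went the other way, from a mean of 1040.3 CPM to 2038 (log2 change 0.97 ± 0.26, edgeR adjusted p = 0.0039, higher in 3 of 3 isolations, 0.94 and not called without isolation 3). The integrated stress response list had 19 of 24 higher and 2 lower, median 2.37 (2.69 without isolation 2). Atf4, its central factor, was at 114, 125 and 127 CPM on day 0 and 477, 366 and 654 on day 1, with no overlap (log2 change 2.03 ± 0.21, edgeR adjusted p = 1.5e-07, higher in 3 of 3 isolations). Phgdh, the first enzyme of serine synthesis, was at 5.27, 7.04 and 3.54 CPM on day 0 and 260.3, 152 and 308 on day 1, isolation 2 lowest on day 1 (log2 change 5.50 ± 0.30, edgeR adjusted p = 2.7e-11, higher in 3 of 3 isolations). Psat1, the next enzyme, rose from a mean of 7.37 CPM to 181 (log2 change 4.64 ± 0.38, edgeR adjusted p = 6.9e-09, higher in 3 of 3 isolations). Mthfd2, a mitochondrial folate enzyme, rose from a mean of 2.31 CPM to 69.3 (log2 change 4.90 ± 0.25, edgeR adjusted p = 9.7e-12, higher in 3 of 3 isolations). Asns, asparagine synthetase, rose 16.1-fold. Ppp1r15a, which lets translation restart, was at 108, 41.9 and 54.5 CPM on day 0 and 1663, 227 and 1209 on day 1, with isolation 2 far below the others on day 1 (log2 change 3.92 ± 0.65, edgeR adjusted p = 4.0e-05, higher in 3 of 3 isolations). Ddit3, the pro-apoptotic factor CHOP, rose less, from a mean of 12.1 CPM to 22.1 (log2 change 0.87 ± 0.23, edgeR adjusted p = 0.0032, higher in 3 of 3 isolations). Vldlr, a lipoprotein receptor, was 1 of the 2 members that fell (log2 change -1.81 ± 0.44, edgeR adjusted p = 0.0016, lower in 3 of 3 isolations).

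The p53 pathway rose by day 1 in most of its members. 26 of 35 rose and 5 fell, median 2.03 (2.15 without isolation 2, with 3 lower). Cdkn1a, the inhibitor of cyclin-dependent kinases known as p21 (chr17:29090976-29100727, GRCm38), was at 52.2, 60.7 and 41.4 CPM on day 0 and 1408, 1005 and 1877 on day 1. The lowest day-1 value, in isolation 2, is still far above every day-0 value (log2 change 4.80 ± 0.27, edgeR adjusted p = 4.3e-11, higher in 3 of 3 isolations). Mdm2, the ubiquitin ligase that limits p53, rose from a mean of 81.5 CPM to 417 (log2 change 2.36 ± 0.22, edgeR adjusted p = 3.9e-08, higher in 3 of 3 isolations). Trp53 itself, the p53 gene, rose from a mean of 27.8 CPM to 109 (log2 change 1.98 ± 0.16, edgeR adjusted p = 4.9e-09, higher in 3 of 3 isolations). Phlda3, a membrane-bound brake on Akt, rose from a mean of 7.44 CPM to 151 (log2 change 4.34 ± 0.15, edgeR adjusted p = 4.3e-14, higher in 3 of 3 isolations). Gtse1, a binding partner of p53, rose from a mean of 1.195 CPM to 49.8 (log2 change 5.45 ± 0.41, edgeR adjusted p = 2.0e-09, higher in 3 of 3 isolations). Bax, an effector of apoptosis, rose 5.49-fold and Ccng1, cyclin G1, 6.19-fold. Gdf15, a secreted stress cytokine, went from a mean of 4.43 CPM to 99.1, highest in isolation 3 (log2 change 4.47 ± 0.32, edgeR adjusted p = 1.1e-09, higher in 3 of 3 isolations). Not every target followed: Btg2, an antiproliferative gene, fell from a mean of 342 CPM to 99.1 (log2 change -1.78 ± 0.17, edgeR adjusted p = 3.5e-08, lower in 3 of 3 isolations). Sesn1, a sestrin that restrains growth signalling, fell from a mean of 25.6 CPM to 8.56 (log2 change -1.58 ± 0.28, edgeR adjusted p = 9.1e-05, lower in 3 of 3 isolations). Pmaip1, the apoptosis gene Noxa, rose from a mean of 0.456 CPM to 20.7 (log2 change 5.31 ± 0.60, edgeR adjusted p = 4.2e-07, higher in 3 of 3 isolations) and its means on days 3 and 7 were 46.3 and 460.3 CPM, whereas those of Cdkn1a were 456 and 708 CPM. The share of members that rose, 74.3%, compares with 26.2% of all genes. RNA levels alone do not show whether p53 protein was active.

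Most listed genes of the step from G1 to S rose, and few listed genes of G2 and mitosis were called. The lists were not tested against each other. Of 19 genes of the step from G1 to S, 14 rose and 2 fell, median 0.85. The lower count is 1 without isolation 1 or 3, in the 6-library fit and with library totals. Ccne1, cyclin E1, rose from a mean of 0.353 CPM to 4.65 (log2 change 3.61 ± 0.53, edgeR adjusted p = 1.2e-05, higher in 3 of 3 isolations). Mcm3, a subunit of the replicative helicase, rose from a mean of 6.204 CPM to 25.97 (log2 change 2.07 ± 0.34, edgeR adjusted p = 3.3e-05, higher in 3 of 3 isolations). Ccnd3, a D-type cyclin, fell from a mean of 154 CPM to 51.96 (log2 change -1.57 ± 0.13, edgeR adjusted p = 8.2e-09, lower in 3 of 3 isolations). In the list for G2 and mitosis, 1 of 14 rose and 2 fell (7.1% and 14.3%, beside 26.2% and 28.5% of all genes), and its median of -0.56 was -0.64, 0.02 and -0.88 without isolation 1, 2 or 3. The count of higher members was 0, 1 and 0 in those fits and 0 in the 6-library fit. Mki67, the proliferation marker Ki-67, was low and not called at 1.08, 4.11 and 4.204 CPM on day 0 and 0.953, 2.34 and 2.37 on day 1 (log2 change -0.67 ± 0.51, edgeR adjusted p = 0.27, lower in 3 of 3 isolations), with means of 48.02 and 33.1 CPM on days 3 and 7. Bub1, a kinase of the spindle checkpoint, fell from a mean of 18.7 CPM to 1.34 (log2 change -3.77 ± 0.62, edgeR adjusted p = 4.1e-05, lower in 3 of 3 isolations). Among other inhibitors, Cdkn2b, which blocks the D-type cyclin kinases, rose from a mean of 7.39 CPM to 36 (log2 change 2.29 ± 0.22, edgeR adjusted p = 5.7e-08, higher in 3 of 3 isolations), and Cdkn2a had no count in any of the 6 libraries. Of the 6 inhibitors tested, 2 rose (33.3%, beside 26.2% of all genes) and 2 fell (33.3%, beside 28.5%), median -0.81. Without isolation 1, 2 or 3 the median was -0.69, -0.41 and -1.13, with 1, 1 and 3 lower.

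**Figure D2:**
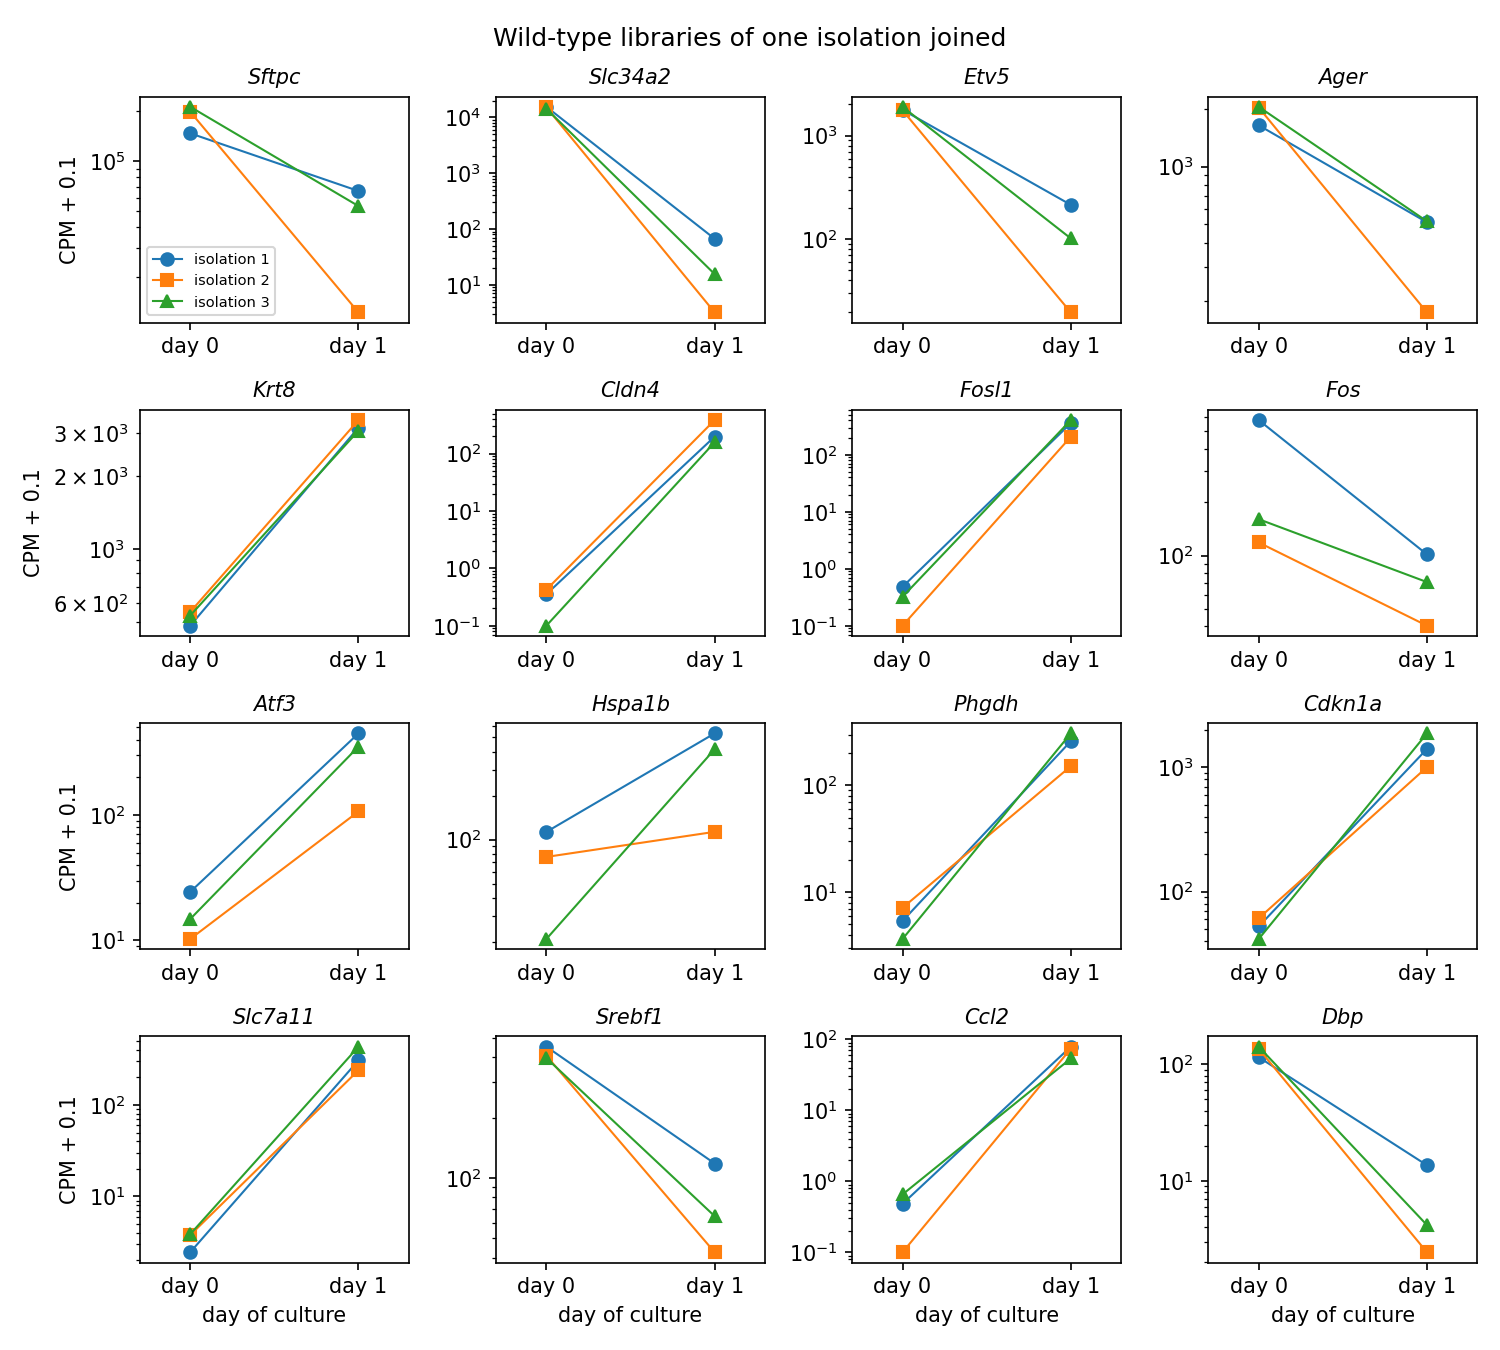
CPM of 16 genes in the 6 wild-type libraries on a log axis, with 0.1 added. Lines join the day-0 and day-1 libraries of an isolation.

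Antioxidant genes under NRF2 rose strongly, although the RNA of the factor fell. 17 of 23 rose and 2 fell, median 1.79 (1.93 without isolation 2). Nfe2l2, which encodes NRF2, was at 464, 471 and 462 CPM on day 0 and 274, 249 and 303 on day 1, no values overlapping (log2 change -0.76 ± 0.14, edgeR adjusted p = 1.0e-04, lower in 3 of 3 isolations). Slc7a11, the cystine carrier, rose from a mean of 3.26 CPM to 328 (log2 change 6.68 ± 0.26, edgeR adjusted p = 1.8e-13, higher in 3 of 3 isolations). The same value is the largest of the integrated stress response list, of which Slc7a11 is also a member. Nqo1, a quinone reductase, rose from a mean of 4.47 CPM to 135 (log2 change 4.93 ± 0.48, edgeR adjusted p = 5.8e-08, higher in 3 of 3 isolations). Srxn1, sulfiredoxin, went from a mean of 39.2 CPM to 751 (log2 change 4.26 ± 0.19, edgeR adjusted p = 2.2e-12, higher in 3 of 3 isolations). Gclm, a subunit of the enzyme for glutathione synthesis, rose from a mean of 61.5 CPM to 949 (log2 change 3.95 ± 0.19, edgeR adjusted p = 5.9e-12, higher in 3 of 3 isolations). Txnrd1, thioredoxin reductase, rose 9.33-fold and Hmox1, heme oxygenase 1, 7.13-fold. Gains of abundant RNA came from Ftl1, ferritin light chain, at 2256, 3003 and 3078 CPM on day 0 and 8699.7, 9481 and 10568 on day 1 (log2 change 1.79 ± 0.19, edgeR adjusted p = 1.6e-07, higher in 3 of 3 isolations). Ftl1 has many processed copies that share its reads. Sqstm1, the autophagy receptor p62, rose from a mean of 586 CPM to 3333 (log2 change 2.51 ± 0.18, edgeR adjusted p = 9.7e-10, higher in 3 of 3 isolations). Esd, an esterase that clears formaldehyde adducts, rose from a mean of 87.1 CPM to 2222 (log2 change 4.67 ± 0.22, edgeR adjusted p = 3.7e-12, higher in 3 of 3 isolations). Gsta1, a glutathione transferase, was at 0.381, 0 and 0 CPM on day 0 and 634, 1455 and 1174 on day 1 (log2 change 12.55 ± 0.63, edgeR adjusted p = 8.2e-12, higher in 3 of 3 isolations), but it shares reads with Gm3776, a near-identical copy at 0.254, 0.325 and 0.332 CPM on day 0 and 352, 801 and 658 on day 1 (log2 change 10.96 ± 0.52, edgeR adjusted p = 1.9e-11, higher in 3 of 3 isolations). Their sum is therefore safer than either value, and both are near 0 on day 0. Neither gene is a member of the list, whose largest log2 change was 6.68. Tkt, transketolase, fell in contrast to Taldo1, transaldolase of the same pathway, which rose 7.32-fold (log2 change -0.87 ± 0.10, edgeR adjusted p = 7.7e-07, lower in 3 of 3 isolations for Tkt). On day 3 and day 7 Slc7a11 had means of 41.9 and 26.1 CPM, so this RNA was highest at day 1 among these means.

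Most genes of lipid synthesis fell. Of 24 tested sterol genes, 0 rose and 18 fell, median -1.17 (-0.90 without isolation 2). Srebf2, the sterol-sensing transcription factor, fell from a mean of 384 CPM to 131 (log2 change -1.55 ± 0.21, edgeR adjusted p = 4.5e-06, lower in 3 of 3 isolations). Mvd, a decarboxylase of the mevalonate pathway, fell from a mean of 60.3 CPM to 13.7 (log2 change -2.14 ± 0.18, edgeR adjusted p = 1.0e-08, lower in 3 of 3 isolations). Dhcr7, the last reductase to cholesterol, fell from a mean of 94.6 CPM to 20.1 (log2 change -2.23 ± 0.32, edgeR adjusted p = 8.3e-06, lower in 3 of 3 isolations). Fatty-acid and phospholipid genes fell further, 18 of 24 with 2 higher, median -2.29 (-2.05 without isolation 2). Srebf1, their transcription factor (chr11:60199089-60222581, GRCm38), was at 451, 406 and 396 CPM on day 0 and 118, 42.6 and 64.5 on day 1, without overlap (log2 change -2.48 ± 0.25, edgeR adjusted p = 7.6e-08, lower in 3 of 3 isolations). Scd1, the desaturase that makes oleate, was at 10534, 8609.7 and 10308 CPM on day 0 and 1891, 149.8 and 1143 on day 1, and isolation 2 kept least (log2 change -3.21 ± 0.71, edgeR adjusted p = 7.4e-04, lower in 3 of 3 isolations). Fasn, fatty acid synthase, fell from a mean of 2166 CPM to 326 (log2 change -2.73 ± 0.39, edgeR adjusted p = 7.6e-06, lower in 3 of 3 isolations). Gpam, the first acyltransferase of glycerolipid synthesis, fell from a mean of 564 CPM to 25.04 (log2 change -4.49 ± 0.32, edgeR adjusted p = 1.1e-09, lower in 3 of 3 isolations). Elovl1, an elongase of long acyl chains, fell from a mean of 2375 CPM to 179 (log2 change -3.73 ± 0.13, edgeR adjusted p = 4.6e-14, lower in 3 of 3 isolations). Pparg, a nuclear receptor of lipid storage, rose from a mean of 8.46 CPM to 37.2 (log2 change 2.13 ± 0.24, edgeR adjusted p = 4.2e-07, higher in 3 of 3 isolations). Elovl6, another elongase, was the other member to rise (log2 change 3.34 ± 0.52, edgeR adjusted p = 2.1e-05, higher in 3 of 3 isolations).

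Genes of fatty-acid breakdown fell as well. Of 21 genes, 0 rose and 18 fell, median -1.20 (-1.04 without isolation 2). Ppara, the nuclear receptor of this pathway, fell from 9.15, 6.82 and 5.31 CPM to 0.807, 0.584 and 1.02 (log2 change -3.12 ± 0.69, edgeR adjusted p = 7.5e-04, lower in 3 of 3 isolations). Hadh, a dehydrogenase of beta-oxidation, was at 160.4, 232 and 203 CPM on day 0 and 65.9, 47.9 and 46.4 on day 1, with no overlap (log2 change -1.89 ± 0.16, edgeR adjusted p = 1.2e-08, lower in 3 of 3 isolations). Etfb, a subunit of the flavoprotein that takes electrons from acyl-CoA dehydrogenases, fell from a mean of 189.9 CPM to 53.9 (log2 change -1.82 ± 0.14, edgeR adjusted p = 3.9e-09, lower in 3 of 3 isolations).

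Glycolysis changed enzyme by enzyme. 9 of 17 genes rose and 4 fell (2 without isolation 3 and 1 with library totals), median 0.83. Eno1, enolase, rose from a mean of 161 CPM to 829 (log2 change 2.37 ± 0.16, edgeR adjusted p = 4.6e-10, higher in 3 of 3 isolations). Pgk1, phosphoglycerate kinase, rose from a mean of 94.6 CPM to 328 (log2 change 1.80 ± 0.14, edgeR adjusted p = 3.8e-09, higher in 3 of 3 isolations). Slc2a1, a glucose transporter, rose from a mean of 38.5 CPM to 98.7 (log2 change 1.35 ± 0.22, edgeR adjusted p = 3.4e-05, higher in 3 of 3 isolations). Pfkm, a subunit of phosphofructokinase, fell from a mean of 18.9 CPM to 4.86 (log2 change -1.96 ± 0.36, edgeR adjusted p = 1.4e-04, lower in 3 of 3 isolations). Ldha, lactate dehydrogenase, fell from a mean of 1007 CPM to 663 (log2 change -0.60 ± 0.19, edgeR adjusted p = 0.010, lower in 3 of 3 isolations, -0.48 and not called without isolation 3, not called with library totals, the 6-library fit and the replicate block on 6 libraries). Gapdh, which has many processed copies that share reads, rose 2.504-fold in mean CPM. Hypoxia genes were divided too, 5 of 17 higher (29.4%, beside 26.2% of all genes) and 7 lower (41.2% beside 28.5%). Their median of -0.44 is 0.01 with library totals, beside 0.46 for all genes, and -0.02 in the 6-library fit, and it is -0.68, -0.22 and -0.36 without isolation 1, 2 or 3. Adm, adrenomedullin, rose from a mean of 0.795 CPM to 89.8 (log2 change 6.67 ± 0.69, edgeR adjusted p = 1.1e-07, higher in 3 of 3 isolations). Ndrg1, a stress-response gene, rose from a mean of 11.7 CPM to 248 (log2 change 4.40 ± 0.34, edgeR adjusted p = 3.5e-09, higher in 3 of 3 isolations). Epas1, the hypoxia-inducible factor 2 alpha, fell from a mean of 312 CPM to 84.5 (log2 change -1.88 ± 0.45, edgeR adjusted p = 0.0016, lower in 3 of 3 isolations). Pdk1, a kinase that shuts off pyruvate dehydrogenase, fell from a mean of 33.1 CPM to 8.38 (log2 change -1.98 ± 0.34, edgeR adjusted p = 6.4e-05, lower in 3 of 3 isolations). No single direction describes these oxygen-responsive genes.

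Respiratory-chain genes changed little. Of 75 nuclear genes, 6 rose and 17 fell (22.7%, beside 28.5% of all genes), against 26 higher and 5 lower with library totals. Without isolation 1, 2 or 3 the counts are 7, 2 and 1 higher and 15, 16 and 9 lower, and the 6-library fit gives 1 and 9. None passed the edgeR test for a change beyond 2-fold (glmTreat), and the median of -0.09 is 0.41 with library totals (all genes 0.46), 0.01 in the 6-library fit and 0.01 without isolation 3. Ndufv3, a subunit of complex I, fell from a mean of 45.3 CPM to 18.9 (log2 change -1.26 ± 0.18, edgeR adjusted p = 7.0e-06, lower in 3 of 3 isolations). Of 13 genes on mitochondrial DNA, 0 rose and 3 fell (23.1%), median -0.48. Library totals give 1 higher and 0 lower, median -0.02 beside 0.46 for all genes, and the 6-library fit gives 0 lower. Fits without isolation 1, 2 or 3 give 0, 0 and 6 lower, with medians of -0.39, -0.20 and -0.78. The share of counts from mitochondrial genes was 1.99%, 2.07% and 1.91% on day 0 and 1.73%, 1.88% and 2.95% on day 1, so only isolation 3 went up.

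Genes of ribosome biogenesis rose. 23 of 24, a list that includes Myc as its regulator, rose and 1 fell, median 1.81, nearly the same in isolations 1, 2 and 3 (1.90, 1.83 and 1.54). Without isolation 2, and with library totals, 0 are lower. Nop58, a core protein of small nucleolar particles, was at 39.3, 41.3 and 30.6 CPM on day 0 and 271, 265 and 270.3 on day 1, with close values within each day (log2 change 2.85 ± 0.14, edgeR adjusted p = 5.5e-12, higher in 3 of 3 isolations). Npm1, nucleophosmin, rose from a mean of 117 CPM to 688 (log2 change 2.56 ± 0.20, edgeR adjusted p = 3.5e-09, higher in 3 of 3 isolations). Ncl, nucleolin, rose from a mean of 253 CPM to 918 (log2 change 1.86 ± 0.15, edgeR adjusted p = 4.1e-09, higher in 3 of 3 isolations). This list had the largest share of higher members, 95.8%. Of 25 lysosomal genes 15 fell and 3 rose, median -0.61, whereas library totals give 9 lower and 8 higher, median -0.14 beside 0.46 for all genes. Without isolation 2, 10 are lower. Ctsc, cathepsin C, fell from a mean of 3868 CPM to 354 (log2 change -3.45 ± 0.38, edgeR adjusted p = 3.2e-07, lower in 3 of 3 isolations). Ctsd, cathepsin D, rose from a mean of 456 CPM to 1638 (log2 change 1.85 ± 0.26, edgeR adjusted p = 5.1e-06, higher in 3 of 3 isolations). Lipa, the lysosomal acid lipase, was at 14.8, 6.49 and 1.55 CPM on day 0 and 107, 52.7 and 16 on day 1, highest in isolation 1 and lowest in isolation 3 on both days (log2 change 2.89 ± 0.85, edgeR adjusted p = 0.0069, higher in 3 of 3 isolations, 2.92 and not called without isolation 2).

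Many cytokine and chemokine genes rose, several of them from low starting levels. In the NF-kB list 20 of 28 rose and 5 fell, median 1.57 (1.86 without isolation 2, with 3 lower). Ccl2, which draws monocytes (chr11:82035571-82037453, GRCm38), was at 0.381, 0 and 0.553 CPM on day 0 and 78.7, 73.7 and 53.6 on day 1, all day-1 values far above day 0 and the isolations close (log2 change 7.70 ± 0.79, edgeR adjusted p = 1.0e-07, higher in 3 of 3 isolations). Ccl7, its neighbour on the chromosome with the same receptor, was at 0.572, 0 and 0.664 CPM on day 0 and 37.4, 46.1 and 26.6 on day 1 (log2 change 6.38 ± 0.84, edgeR adjusted p = 2.7e-06, higher in 3 of 3 isolations). Lif, a cytokine of the interleukin 6 family, rose from a mean of 0.962 CPM to 49.1 (log2 change 5.49 ± 0.44, edgeR adjusted p = 4.9e-09, higher in 3 of 3 isolations). Csf1, the macrophage growth factor, rose from a mean of 30.8 CPM to 237 (log2 change 2.94 ± 0.41, edgeR adjusted p = 4.8e-06, higher in 3 of 3 isolations). Tnf, tumour necrosis factor, was at 0.191, 0 and 0 CPM on day 0 and 12.7, 9.35 and 1.02 on day 1, a ratio of 84.3 with a 95% counting interval of 28.6 to 411 (log2 change 6.37 ± 1.24, edgeR adjusted p = 2.3e-04, higher in 3 of 3 isolations). Il1b, interleukin 1 beta, was at 1.397, 0.649 and 0 CPM on day 0 and 10.3, 9.77 and 0 on day 1 and had no count in isolation 3 on either day (log2 change 3.19 ± 1.77, edgeR adjusted p = 0.13, higher in 2 of 3 isolations, called with the replicate block and the replicate block on 6 libraries). Isolation 1 was highest for Il6, interleukin 6, at 1.21, 0.758 and 0.443 CPM on day 0 and 14.96, 6.34 and 2.64 on day 1 (log2 change 3.25 ± 0.68, edgeR adjusted p = 4.4e-04, higher in 3 of 3 isolations). On day 1 Ccl2, Tnf and Il6 were highest in isolation 1 and lowest in isolation 3, as were macrophage, fibroblast and ciliated-cell markers, and which cells made these RNAs was not tested. Csf2, granulocyte-macrophage colony-stimulating factor, fell from a mean of 23.9 CPM to 8.04 (log2 change -1.57 ± 0.43, edgeR adjusted p = 0.0045, lower in 3 of 3 isolations, -1.24 and not called without isolation 2, -1.30 and not called without isolation 3). Il33, at a mean of 1031 CPM on day 0, had the deepest fall of the list. Nfkbia, the inhibitor induced by NF-kB, rose 2.18-fold. Birc3, an inhibitor of apoptosis, fell from a mean of 56.4 CPM to 19.01 (log2 change -1.57 ± 0.24, edgeR adjusted p = 1.3e-05, lower in 3 of 3 isolations).

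Interferon-stimulated genes were divided, with more of them lower than higher under TMM and the reverse with library totals. 4 of 22 (18.2%) rose and 7 (31.8%) fell, beside 26.2% and 28.5% of all genes, and with library totals 9 were higher and 4 lower. The median of -0.33 becomes 0.14 with library totals, beside 0.46 for all genes, and -0.14, -0.09 and -0.38 without isolation 1, 2 or 3. Stat2, a factor of interferon signalling, fell from a mean of 33.8 CPM to 12.6 (log2 change -1.42 ± 0.24, edgeR adjusted p = 5.8e-05, lower in 3 of 3 isolations). Ifit3, an antiviral effector, rose from a mean of 2.28 CPM to 10.4 (log2 change 2.20 ± 0.56, edgeR adjusted p = 0.0025, higher in 3 of 3 isolations). Mx1, a dynamin-like antiviral GTPase, was at 0.0635, 0 and 0 CPM on day 0 and 3.08, 3.17 and 6.78 on day 1, a ratio of 152 with a 95% counting interval of 26.9 to 6025 (log2 change 6.85 ± 1.02, edgeR adjusted p = 1.3e-05, higher in 3 of 3 isolations). Such intervals cover counting error only, not variation between isolations.

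Genes of the actin cytoskeleton and targets of YAP and TAZ rose. 20 of 28 cytoskeletal and adhesion genes rose and 2 fell (0 without isolation 2), median 1.04. Itga2, an integrin chain that binds collagen, was almost absent from fresh cells: 0, 0.866 and 0 CPM on day 0 and 75.8, 154 and 76.4 on day 1 (log2 change 8.68 ± 0.82, edgeR adjusted p = 3.9e-08, higher in 3 of 3 isolations, 13.12 without isolation 2). Flna, filamin A, rose from a mean of 195 CPM to 746 (log2 change 1.94 ± 0.24, edgeR adjusted p = 1.1e-06, higher in 3 of 3 isolations). Tpm2, a tropomyosin, rose from a mean of 5.01 CPM to 31.6 (log2 change 2.62 ± 0.36, edgeR adjusted p = 4.8e-06, higher in 3 of 3 isolations). Actb, the gene for beta-actin, was not called at 1569, 1888 and 1152 CPM on day 0 and 2368, 3794 and 1689 on day 1 (log2 change 0.77 ± 0.42, edgeR adjusted p = 0.12, higher in 3 of 3 isolations, called with library totals, the replicate block and the replicate block on 6 libraries). In the YAP and TAZ list, 9 of 12 rose, all of them among the 10 targets, and the 2 regulators were not called, median 2.04 (2.13 without isolation 2). F3, tissue factor, was at 33.03, 35.6 and 24.6 CPM on day 0 and 1524, 1689 and 1396 on day 1, without overlap (log2 change 5.63 ± 0.29, edgeR adjusted p = 1.0e-11, higher in 3 of 3 isolations). Ccn1, a matrix-bound target of YAP, rose from a mean of 43.1 CPM to 1049.9 (log2 change 4.60 ± 0.45, edgeR adjusted p = 6.2e-08, higher in 3 of 3 isolations). Ccn2, its relative, rose from a mean of 10.5 CPM to 193 (log2 change 4.16 ± 0.46, edgeR adjusted p = 2.8e-07, higher in 3 of 3 isolations). Means of Ccn2 were 1676 and 3216 CPM on days 3 and 7, so day 1 was early in its rise.

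More clock genes fell than rose. 8 of 16 fell and 2 rose, median -0.73 (-0.46 without isolation 2), and library totals give 6 lower and 5 higher, median -0.28 beside 0.46 for all genes. Leaving out isolation 1 or isolation 3 gives 1 higher. Dbp, an output factor of the clock, was at 115, 136 and 141 CPM on day 0 and 13.5, 2.34 and 4.07 on day 1, lowest in isolation 2 (log2 change -4.29 ± 0.55, edgeR adjusted p = 1.9e-06, lower in 3 of 3 isolations). Per3, a period repressor, fell from a mean of 42.03 CPM to 6.91 (log2 change -2.60 ± 0.30, edgeR adjusted p = 4.7e-07, lower in 3 of 3 isolations). Per1, its relative, fell from a mean of 18.6 CPM to 3.98 (log2 change -2.22 ± 0.30, edgeR adjusted p = 3.3e-06, lower in 3 of 3 isolations). Cry1, a cryptochrome of the same complex, rose from a mean of 19.2 CPM to 52.7 (log2 change 1.46 ± 0.28, edgeR adjusted p = 2.1e-04, higher in 3 of 3 isolations). Hours of collection are not recorded, so a shift of phase cannot be told from a loss of the rhythm.

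Among genes with a mean of at least 10 CPM on day 1, some of the largest fitted rises had no count on day 0. Over an empty group the fitted value is not a measured fold, so it does not rank these genes above others. Bcat1, a transaminase of branched-chain amino acids, went from no count to 20.9, 13.1 and 11.9 CPM, at least 173-fold (log2 change 10.73 ± 1.27, edgeR adjusted p = 1.3e-06, higher in 3 of 3 isolations). Folds given as at least a value set the empty group to 3 counts and cover counting error only. Mmp10, the matrix protease stromelysin 2, reached 13.8, 10.2 and 10.7 CPM, at least 131-fold (log2 change 10.32 ± 1.37, edgeR adjusted p = 9.8e-06, higher in 3 of 3 isolations). Il1f9, interleukin 36 gamma, reached 6.75, 24.04 and 11.2 CPM, highest in isolation 2 (log2 change 10.60 ± 1.01, edgeR adjusted p = 2.3e-07, higher in 3 of 3 isolations). Tpsab1, a tryptase of mast cells, reached 38.6, 14.9 and 2.85 CPM with isolation 1 highest and isolation 3 lowest, so its level varied widely between isolations (log2 change 11.03 ± 1.46, edgeR adjusted p = 9.5e-06, higher in 3 of 3 isolations). Dusp13, a dual-specificity phosphatase, reached 9.83, 5.51 and 19.2 CPM (log2 change 10.32 ± 1.10, edgeR adjusted p = 3.7e-07, higher in 3 of 3 isolations). The function of AC124518.1, an unnamed locus with 10.3, 32.1 and 27.1 CPM on day 1, is not known (log2 change 11.33 ± 0.95, edgeR adjusted p = 5.6e-08, higher in 3 of 3 isolations).

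Further genes fell steeply or from a high level. Ntf3, neurotrophin 3, went from a mean of 22.1 CPM to 0.357 (log2 change -5.88 ± 0.86, edgeR adjusted p = 9.8e-06, lower in 3 of 3 isolations). Rnf186, a membrane ubiquitin ligase, fell from a mean of 136 CPM to 2.78 (log2 change -5.60 ± 0.38, edgeR adjusted p = 6.1e-10, lower in 3 of 3 isolations). Slc10a6, a carrier of sulfated steroids, fell from a mean of 68.5 CPM to 1.84 (log2 change -5.21 ± 0.40, edgeR adjusted p = 2.4e-09, lower in 3 of 3 isolations). Cbr2, a carbonyl reductase abundant in lung, fell from a mean of 8738 CPM to 1676 (log2 change -2.38 ± 0.47, edgeR adjusted p = 2.6e-04, lower in 3 of 3 isolations).

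**Figure D3:**
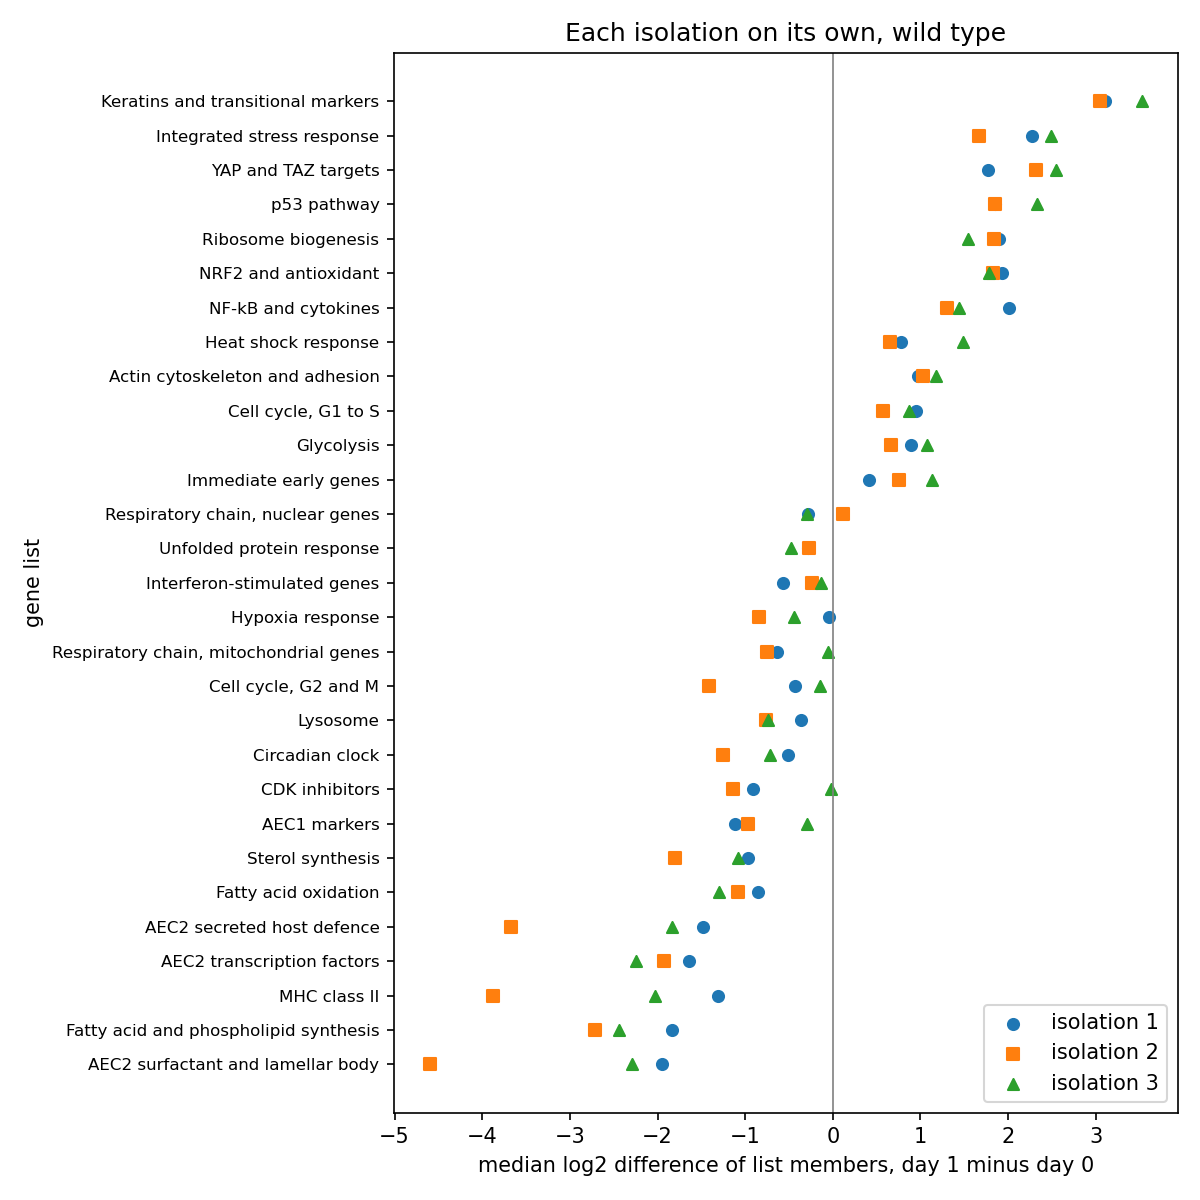
Median log2 difference of each gene list, day 1 minus day 0, in each wild-type isolation on its own.

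A difference between the genotypes in the first-day response was called for 1 gene. Of 18046 genes tested for a difference in the day-1 change between Krt8-null and wild-type cells, 1 was called (0.00554%): Krt8, the gene removed. Its mean went from 29.5 to 38.1 CPM in null cells and from 523 to 3204 in wild type, and the log2 difference of the changes was -2.25 ± 0.31 (edgeR, Benjamini-Hochberg adjusted p = 0.0072). The DESeq2 test called 4: Krt8, its processed copy Krt8-ps, the YAP target Ankrd1 and the locus Gm20431. At an unadjusted p < 0.05 there were 486 of the 18046 genes with edgeR and 549 with DESeq2. Both are a smaller share than the 0.05 that would pass with no true difference. Leaving out isolation 1, 2 or 3 gave Krt8 a difference of -2.21, -2.02 or -2.50, and 0 genes were then called. With so few isolations the lack of other calls does not show that the genotypes respond alike.

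Promoters of list members were searched for short motifs, on both strands of the 300 bases upstream of each start (RefSeq, GRCm38.p6), with 27025 genes as background. A match is a description of sequence and says nothing of binding. For the heat-shock motif GAANNTTC, 10 of the 17 members found in the promoter table had a match (58.8%, against 9.04% of all genes). Hspd1 and Hspe1 share 1 promoter between them, and the windows of Hspa1a and Hspa1b are near-identical in sequence. The matches of these members are therefore not independent. The 10 include Dnaja1, the list member called lower (log2 change -0.40, 0.06 with library totals). Of the alternatives, the replicate block on 24 libraries alone kept that call. The antioxidant motif TGACNNNGC was present in 8 of 19 (42.1% against 14.0%), among them Srxn1, Gclm, Txnrd1 and Prdx1, a peroxiredoxin that rose 3.23-fold, but also Nfe2l2, which fell. The E box CACGTG was present in 5 of 14 clock genes (35.7% against 8.09%). Among them are Per1, which fell, and Cry1 and Ciart, which rose. The sterol motif TCACNCCAC was found in 1 of 17 (5.88% against 1.44%), in Hmgcs1, the synthase at the entry of the mevalonate pathway. For the ATF4 motif TGATGNAAT it was 1 of 21 (4.76% against 1.08%), and for the AP-1 motif TGANTCA 0 of 23 immediate early genes (8.97% of all genes). Matches are in capitals in the sequences printed here, which run 5' to 3' on the strand of the gene.

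The promoter of Hspa1b (chr17:34959189-34959488, minus strand, GRCm38.p6) carries the heat-shock motif: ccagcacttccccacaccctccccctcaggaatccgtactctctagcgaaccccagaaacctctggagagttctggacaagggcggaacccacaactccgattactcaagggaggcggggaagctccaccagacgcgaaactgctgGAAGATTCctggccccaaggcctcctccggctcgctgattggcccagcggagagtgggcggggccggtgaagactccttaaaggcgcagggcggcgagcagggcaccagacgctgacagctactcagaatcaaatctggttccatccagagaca

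The promoter of Hspb1 (chr5:135887669-135887968, plus strand, GRCm38.p6), of a small heat-shock protein that rose, has 2 matches to it: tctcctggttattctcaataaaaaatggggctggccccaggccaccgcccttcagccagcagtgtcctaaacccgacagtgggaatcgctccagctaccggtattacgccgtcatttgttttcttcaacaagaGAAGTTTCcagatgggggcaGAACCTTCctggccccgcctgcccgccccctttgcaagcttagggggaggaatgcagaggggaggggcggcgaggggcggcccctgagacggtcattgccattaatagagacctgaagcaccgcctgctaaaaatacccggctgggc

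The promoter of Bag3 (chr7:128523333-128523632, plus strand, GRCm38.p6), of an HSP70 co-chaperone that rose, has 1: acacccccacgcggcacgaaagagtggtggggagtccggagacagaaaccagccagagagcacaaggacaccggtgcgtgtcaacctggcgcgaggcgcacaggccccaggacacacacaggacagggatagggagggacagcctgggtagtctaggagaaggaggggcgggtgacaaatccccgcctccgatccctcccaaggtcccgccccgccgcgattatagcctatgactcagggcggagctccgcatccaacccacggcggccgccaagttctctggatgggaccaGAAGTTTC

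The promoter of Srxn1 (chr2:152105274-152105573, plus strand, GRCm38.p6) holds the antioxidant motif: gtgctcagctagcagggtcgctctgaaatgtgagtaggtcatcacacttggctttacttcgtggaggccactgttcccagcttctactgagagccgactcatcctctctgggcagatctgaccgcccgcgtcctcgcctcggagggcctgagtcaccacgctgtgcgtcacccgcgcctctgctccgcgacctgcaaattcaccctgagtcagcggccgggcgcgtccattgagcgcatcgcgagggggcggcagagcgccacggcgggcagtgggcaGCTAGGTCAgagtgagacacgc

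The promoter of Gclm (chr3:122245307-122245606, plus strand, GRCm38.p6) holds it too: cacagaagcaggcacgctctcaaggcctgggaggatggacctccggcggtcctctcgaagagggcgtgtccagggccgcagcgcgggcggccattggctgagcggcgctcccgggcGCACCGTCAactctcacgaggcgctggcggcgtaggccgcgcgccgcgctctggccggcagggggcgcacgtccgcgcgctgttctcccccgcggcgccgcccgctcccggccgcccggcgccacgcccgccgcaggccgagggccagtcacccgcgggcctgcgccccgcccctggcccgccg

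The promoter of Hmgcs1 (chr13:119690101-119690400, plus strand, GRCm38.p6) holds the sterol motif of a gene that fell: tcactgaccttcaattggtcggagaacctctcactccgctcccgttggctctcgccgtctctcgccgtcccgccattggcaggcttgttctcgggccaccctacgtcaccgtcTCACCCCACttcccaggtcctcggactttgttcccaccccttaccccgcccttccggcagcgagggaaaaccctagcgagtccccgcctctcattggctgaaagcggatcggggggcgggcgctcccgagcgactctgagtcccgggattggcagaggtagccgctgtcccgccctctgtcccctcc

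The promoter of Per1 (chr11:69098699-69098998, plus strand, GRCm38.p6) holds an E box: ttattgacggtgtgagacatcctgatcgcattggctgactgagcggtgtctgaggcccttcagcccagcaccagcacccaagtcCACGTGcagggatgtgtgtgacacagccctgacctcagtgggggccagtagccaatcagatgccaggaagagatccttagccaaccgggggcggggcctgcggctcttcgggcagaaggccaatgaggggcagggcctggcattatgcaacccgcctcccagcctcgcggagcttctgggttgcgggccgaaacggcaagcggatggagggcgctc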

How the data were processed

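The authors name cutadapt 2.3 for trimming, STAR 2.7.8a for alignment to GRCm38 and RSEM 1.3.3 for counting. The deposited file holds whole-number counts for 24 libraries. They may be rounded RSEM estimates, which the sources used do not state, and were treated as counts. It has 55426 entries: 55421 Ensembl genes and 5 reporters with 0 counts. Library totals were 19483386, 12389747 and 12065192 on day 0 and 13646726, 10184439 and 14370403 on day 1. Symbols and coordinates are from GENCODE M21. CPM is the count divided by library total times TMM factor. All 24 libraries were fitted as 8 groups (16 residual degrees of freedom) in edgeR 4.0.16, quasi-likelihood F test, TMM, genes kept by filterByExpr (minimum count 10, minimum total 15), Benjamini-Hochberg over all genes tested. The main fit had no term for isolation. Changes beyond 2-fold used glmTreat. Alternatives were DESeq2 1.42.0 (size factors, test), library totals, no filter, a fit of 6 libraries, a replicate block and leaving out each isolation. The pairing was taken from the date in the labels. For each library, the deviation of log2 CPM from the mean of its own group was taken. Across genes, these deviations correlated at 0.115 to 0.365 between day-0 and day-1 libraries of a date. Between days, libraries of different dates gave -0.334 to 0.0184. Deviations from a shared mean depend on each other, so these values are a description and not a test of the pairing. Named genes are those with the largest changes among called genes of at least 10 CPM, the largest gains and losses of CPM, and list members with the largest changes or a role to describe. The 29 lists hold 613 genes in 623 entries, so some genes belong to more than 1 list. Members and lists were chosen with earlier results of these data known.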

Additional observations from a re-analysis of the deposited data

Results flagged for a closer look

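The change of Krt8 from day 0 to day 1 differed between the genotypes by a log2 value of -2.25 (Krt8-null minus wild type, edgeR adjusted p = 0.0072, n = 3 isolations a group). It is noted here as a difference between groups of samples. It concerns the gene that was deleted in the null mice.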

How the results depend on the processing

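Of the 213 called genes among the 220 named and tested, 181 kept direction and side of the threshold under all 10 alternatives. Counts of calls ran from 3744 to 7184 higher and from 3115 to 5325 lower. Library totals gave 7184 higher and 3115 lower, and beyond 2-fold 3135 and 1068. Beyond 2-fold, the DESeq2 test gave 1162 lower and leaving out isolation 1 or 2 gave 1732 or 999. The fit of all 24 libraries with a replicate block, which gives each date an effect shared by both genotypes, gave 5007 higher and 5325 lower. Among named genes it changed the call of Actb, Il1b and Hopx (the last lost) and no other. The genotype difference was called for 4 genes by the DESeq2 test and for 0 in each edgeR fit without an isolation. With all libraries, 486 of 18046 genes had an unadjusted p < 0.05 with edgeR (549 with DESeq2), in both a smaller share than 0.05. Under library totals the log2 change became 0.0362 for Ccnd1, 0.0746 for Cnn2 and 0.059 for Dnaja1, each lower with TMM. Jun, not called, gave 0.313 with library totals, 0.0905 without isolation 1, 0.0384 without isolation 2 and -0.335 without isolation 3. For these shifts the cause was not tested. Genes at a few counts have wide counting intervals at this depth, so small changes in them were not detectable.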
